A study of Mus with 6 samples.

Results

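miR-146a and miR-146b are a pair of related mouse miRNAs made from separate genes on different chromosomes. Rows of the count tables whose names begin with miR-146a or miR-146b were taken as members, which gave 4 of 1211 known miRNA names. These are the 5p and 3p arms of each precursor. The arms mmu-miR-146a-5p, mmu-miR-146b-5p and mmu-miR-146b-3p, written below without the species prefix, are in all 6 tables, and miR-146a-3p is listed only in the tables of the libraries numbered 3. Small RNA had been sequenced from mouse fat cells labelled as adipocytes, in 3 libraries of chronic intermittent hypoxia (CIH, in which oxygen is lowered again and again, as in sleep apnoea) and 3 control libraries. Both groups are wild-type C57BL/6. On the fat depot, the animals' age and sex, the length of the exposure and the number of animals behind a library, nothing is given in the sources used here. Both miRNAs were chosen by name with their levels, paralogue ratio and arm ratio in CIH against control libraries known. Those values are therefore a description, without a test.

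Each miRNA precursor yields a duplex of a 5p and a 3p strand, of which one is usually kept as the guide and the other degraded. For both precursors the 5p strand is the known guide. miR-146a-5p and miR-146b-5p share their seed, the stretch that pairs with target mRNAs, and differ only near the 3′ end, so their predicted targets overlap. miR-146a is a known transcriptional target of NF-kB. It represses TRAF6 and IRAK1, which relay Toll-like receptor and interleukin-1 signals, in a feedback loop that limits inflammation. miR-146b has its own promoter and has been reported to increase during adipocyte differentiation.

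In the RefSeq table of GRCm38.p6 the miR-146a gene, Mir146, lies on chromosome 11 from 43374397 to 43374461, a length of 65 bp. No other gene in the table overlaps it. Its nearest neighbours are Gm5782, 40153 bp away on the side of higher coordinates, and the phospholipid flippase gene Atp10b, 112112 bp away on the other side. Mir146b lies on chromosome 19 from 46342762 to 46342870, a length of 109 bp, within the span of the long non-coding RNA gene Gm36493 (46338760 to 46344131). The table does not say whether this position is exonic or intronic. Cuedc2, a protein-coding gene, ends 4090 bp away on the side of lower coordinates.

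Total counts per library ran from 7336758 to 11264151 in CIH and from 6291101 to 9720485 in control. The 2 libraries numbered 3, 1 in each group, come in tables with a different list of names (1186 against 1053) and stood apart from the rest. Between these libraries and those numbered 1 and 2, 114 of 456 tested miRNAs (25.0%) differed with group in the model, 52 higher (11.4%) and 62 lower (13.6%) in those numbered 3 (quasi-likelihood test of edgeR, adjusted p under 0.05). With 1 library left out that count ran from 2 (without CIH library 2 or control library 1) to 253 (without control library 3), with 34, 223 and 30 without CIH library 1, CIH library 3 and control library 2. Levels are given as CPM, the count divided by the total of the whole table and multiplied by 1000000. A count of 3, taken as the floor, is 0.266 to 0.477 CPM, and floors and intervals cover counting error only.

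miR-146b-5p was one of the most abundant miRNAs in every library. It held 82310, 68500 and 68820 CPM in CIH libraries 1, 2 and 3, against 66900, 71850 and 37470 CPM in control libraries 1, 2 and 3. The groups overlapped, and control library 3 stood alone at the low end. miR-146b-5p ranked 3 in 5 of the libraries and 7 in control library 3, and took 6.85% to 8.23% of the CIH and 3.75% to 7.19% of the control counts. In bulk RNA, more cells that make a miRNA and more of it per cell cannot be told apart.

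Across the group means, miR-146b-5p averaged 73210 ± 7883 CPM in the CIH libraries and 58740 ± 18580 CPM in the control libraries (SD, n = 3 each). The edgeR fit gave a log2 difference, CIH minus control, of 0.20 (SE 0.45) over the 6 libraries and 0.26 (SE 0.21) over the libraries numbered 1 and 2. By file total, the libraries of 1 number did not all go one way. CIH was 1.23 times control in number 1, 0.954 times in number 2 and 1.84 times in number 3. After TMM scaling CIH lay above control in each number (71760 against 55840, 73140 against 65250 and 62000 against 58960 CPM). The direction in number 2 therefore depends on the total used. In control library 3 a single other miRNA, miR-148a-3p, stood at 493500 CPM. With miR-148a-3p left out of the totals, miR-146b-5p held 84850, 70480 and 91640 CPM in the CIH libraries and 70810, 75380 and 73980 CPM in the control libraries. With the 10 most abundant miRNAs left out of the totals instead, CIH library 3 held 240200 CPM and control library 3 held 236900 CPM, which was again the lowest of the 6. miR-146b-5p is itself among these 10, so these values set it against the remaining reads and are not shares of a total. The place of control library 3 therefore depends on the total used.

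Between the sets of libraries, the levels of the members are also given as a description. The log2 difference of the libraries numbered 3 from those numbered 1 and 2, with group in the model, was -0.13 (SE 0.24) for miR-146b-5p, -0.04 (SE 0.31) for miR-146b-3p and 3.99 (SE 0.92) for miR-146a-5p. The value of miR-146b-5p depended on the scaling and the filter, at -0.49 with total counts only, -0.31 with a filter at a mean of 10 CPM and 0.061 with RLE scaling, and that of miR-146b-3p was -0.41, -0.22 and 0.15 under the same choices. Without CIH library 3 the value of miR-146a-5p was 1.58 (SE 0.39). For comparison, miR-21a-5p, another abundant miRNA that inflammatory signals induce, was lower in the libraries numbered 3 in the same fit, with a log2 difference of -1.66 (SE 0.28, edgeR adjusted p = 0.0156).

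miR-146a-5p was a minor miRNA in 5 of the 6 libraries and abundant in 1. It held 45.5, 37.2 and 1964 CPM in CIH libraries 1, 2 and 3, against 24.3, 24.9 and 38.7 CPM in control libraries 1, 2 and 3. CIH library 3 stood far above all others, at 50.7 times the control library of the same number by file total. After TMM scaling these libraries held 1770 and 60.95 CPM, and with miR-148a-3p left out of the totals 2616 and 76.49 CPM. The fold is smaller under both, so its size depends on the total used. The groups overlapped, because CIH library 2 lay below control library 3. These levels rest on 334, 374 and 22126 reads in CIH and 153, 242 and 320 reads in control, so counting error alone spans 1938 to 1990 CPM in CIH library 3 (exact Poisson 95% interval). By rank, miR-146a-5p was number 42 in CIH library 3 and between 145 and 203 in the other 5 libraries.

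**Figure D1:**
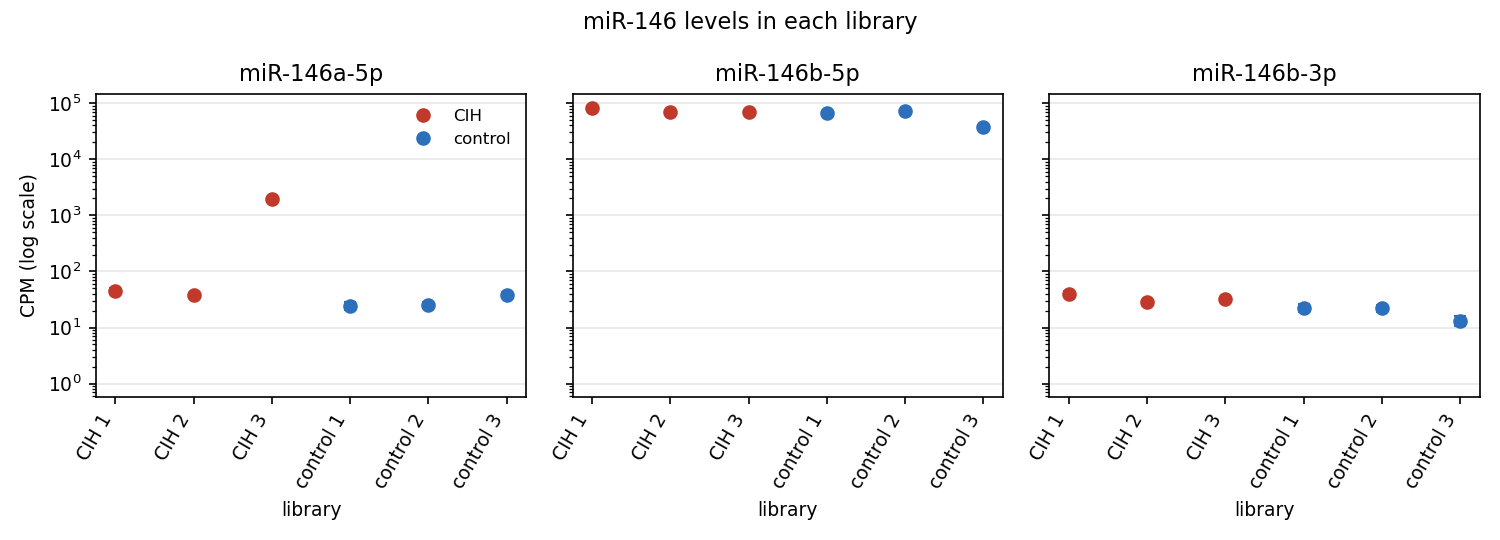
Level of each miR-146 arm in each library, in CPM on a log axis, with CIH libraries in red and control libraries in blue. Bars are exact Poisson 95% intervals, often smaller than the points. miR-146a-5p reached 1964 CPM in CIH library 3 and lay between 24.3 and 45.5 CPM elsewhere, whereas miR-146b-5p lay between 37470 and 82310 CPM in all libraries.

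By file total, the order of the 6 miR-146a-5p levels was CIH 3, CIH 1, control 3, CIH 2, control 2 and control 1. The intervals of CIH 1, control 3 and CIH 2 overlap in part (40.8 to 50.7, 34.6 to 43.2 and 33.6 to 41.2 CPM), as do those of control 2 and control 1 (21.9 to 28.2 and 20.6 to 28.5 CPM). The low pair of control libraries thus lay below the other 4 by more than counting error. The place of control 3 depends on the total used. After TMM scaling it lay above CIH 1 and CIH 2 (60.95 against 39.69 and 39.76 CPM). It also did so with miR-148a-3p left out of the totals (76.49 against 46.93 and 38.32 CPM).

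The mean of miR-146a-5p was 682 ± 1110 CPM in the CIH libraries and 29.3 ± 8.17 CPM in the control libraries (SD, n = 3 each), so the spread within the CIH group exceeded its mean. The fitted log2 difference was 4.16 (SE 1.57) over the 6 libraries. Without CIH library 3 it was 0.18 (SE 0.60), with the library number as a block it was 2.05 (SE 0.97), and with limma-voom it was 2.25 (SE 1.47). The libraries numbered 1 and 2 alone gave 0.88 (SE 0.31), with CIH at 1.87 times control in number 1 and 1.496 times in number 2. edgeR called 0 of 456 tested miRNAs (0.0%) over the 6 libraries, with 23 at an unadjusted p under 0.05, and DESeq2 and limma-voom also called 0. Within the libraries numbered 1 and 2 it called 43 of 459 (9.37%), and 23, 97, 14 and 9 without CIH library 1, CIH library 2, control library 1 and control library 2. In these last fits 1 group holds a single library, which is assumed to vary as the other group does.

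Set against every other miRNA with a mean of at least 10 CPM, miR-146a-5p had the largest excess in CIH library 3. Its level in that library was known beforehand and led to its choice. Its place in this order is therefore a description and no test. By file total, its level there was 42.7 times the highest of the other 5 libraries, after 0.5 CPM was added to each value. After TMM scaling it held 1770 CPM there, and the highest of the others was control library 3 at 60.95 CPM. Of 257 such miRNAs it was the only 1 (0.389%) above 10-fold. The next were miR-199b-5p at 4.92 times, miR-214-3p at 4.68 times and miR-503-3p at 4.42 times. In all, 30 of the 257 stood over 2-fold above every other library in CIH library 3, compared with 7 in control library 3, 6 in CIH library 1 and 0 in each of the other 3 libraries. miR-146b-5p and miR-146b-3p in CIH library 3 stood at 0.836 and 0.80 times the highest of the others.

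**Figure D2:**
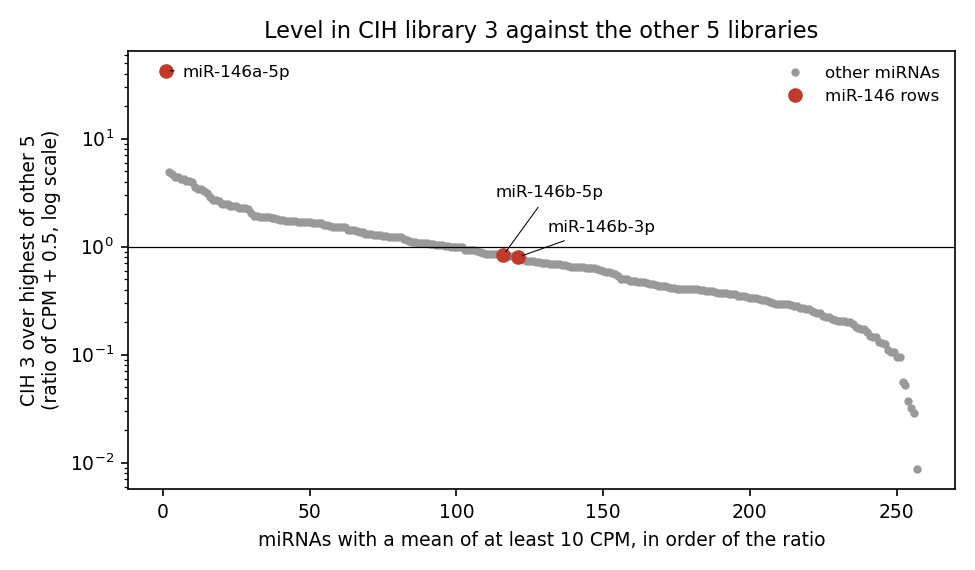
Level in CIH library 3 divided by the highest level in the other 5 libraries, for 257 miRNAs with a mean of at least 10 CPM, in order of the ratio on a log axis. The miR-146 rows are in red. miR-146a-5p lies alone at 42.7, above miR-199b-5p at 4.92, and the arms of miR-146b lie just below 1.

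Markers of other cells were measured beside this result. The 6 leukocyte markers present in all tables, among them miR-142a-3p, miR-223-3p and miR-150-5p, summed to 0.266 CPM in CIH library 3 and 3.54 and 2.29 CPM in CIH libraries 1 and 2, against 0.363 CPM in control library 3 and 4.45 and 2.16 CPM in control libraries 1 and 2. miR-142a-3p and miR-223-3p were at 0 in both libraries numbered 3. A count of 0 allows up to 0.266 CPM in CIH library 3 and 0.363 CPM in control library 3. Stromal markers were high in the same library as miR-146a-5p. The 5 of them (miR-199a-3p, miR-199a-5p, miR-199b-5p, miR-214-3p and miR-145a-5p) summed to 11380, 11370 and 68360 CPM in CIH libraries 1, 2 and 3, and to 16620, 13810 and 6861 CPM in control libraries 1, 2 and 3. In CIH library 3, miR-199a-3p held 42470 CPM and miR-199a-5p 20230 CPM, so this sum mostly follows miR-199a. What the stromal markers contribute to the miR-146a-5p level was not tested.

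CIH library 3 was not the highest library for any of the other marker sums. Epithelial markers (7 of 7 found) summed to 170, 126 and 18.6 CPM in CIH libraries 1, 2 and 3 and 408, 334 and 76.3 CPM in the control libraries, and erythroid markers (3 of 3) to 106, 44.1 and 3.29 CPM, against 129, 48.6 and 8.35 CPM. Endothelial markers summed to 104, 73.1 and 100.1 CPM in CIH, against 137, 92.9 and 33.8 CPM in control. No miRNA is exclusive to adipocytes. The 10 adipocyte-linked miRNAs, all found, summed to 186400, 168300 and 326700 CPM in CIH, against 245500, 259300 and 638300 CPM in control, with miR-148a-3p as the main part of both libraries numbered 3.

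The ratio of the paralogues within a library does not depend on scaling between libraries. miR-146a-5p made up 0.0553%, 0.0543% and 2.78% of the reads of both 5p strands together in CIH libraries 1, 2 and 3, against 0.0363%, 0.0346% and 0.103% in control libraries 1, 2 and 3. miR-146b-5p therefore had 1808, 1839 and 35.0 reads per miR-146a-5p read in the CIH libraries, and 2751, 2886 and 967 in the control libraries. Within each library number the share of miR-146a-5p was higher in CIH, and its exact 95% intervals did not meet. In number 1 they were 0.0495% to 0.0615% in CIH and 0.0308% to 0.0426% in control. These intervals cover counting error only. That of control library 3 (0.0923% to 0.115%) does not meet that of control library 1 either. Intervals that do not meet thus also occur within a group. Over the groups the ranges overlapped, since control library 3 lay above CIH libraries 1 and 2.

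On the log2 scale the ratio of miR-146a-5p to miR-146b-5p averaged -8.93 ± 3.29 in CIH and -10.95 ± 0.89 in control (SD, n = 3 each). The difference of 2.01 was smaller than the spread within the CIH group, and without CIH library 3 it was 0.11. Both strands are so alike that a read cut short or misread near its 3′ end could be counted under the other name, and how such reads were assigned was not given in the sources used here. Its part in the low miR-146a-5p counts was not tested. In CIH library 3, where miR-146a-5p was high, the miR-146b-5p level of 68820 CPM by file total lay within the range of CIH libraries 1 and 2. After TMM scaling it lay below both (62000 against 71760 and 73140 CPM). With miR-148a-3p left out of the totals it lay above both (91640 against 84850 and 70480 CPM). Its place among the CIH libraries therefore depends on the total used.

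The passenger strands were rare. miR-146b-3p held 40.1, 28.1 and 32.0 CPM in CIH libraries 1, 2 and 3, against 22.3, 22.1 and 13.1 CPM in control libraries 1, 2 and 3. All CIH libraries lay above all control libraries, and CIH was 1.801, 1.27 and 2.44 times control in numbers 1, 2 and 3. Means were 33.4 ± 6.12 CPM in the CIH libraries and 19.2 ± 5.26 CPM in the control libraries (SD, n = 3 each), and the fitted log2 difference was 0.66 (SE 0.40) over the 6 libraries and 0.74 (SE 0.31) within those numbered 1 and 2. Of all 456 tested miRNAs, 34 (7.46%) had CIH ranges wholly above control, so this is a description of the row and no more. The ranges also stayed apart after TMM scaling, at 28.8 to 34.9 CPM in CIH, against 18.6 to 20.6 CPM in control.

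Within the miR-146b precursor the share of the 3p strand was 0.0487%, 0.0410% and 0.0464% in CIH libraries 1, 2 and 3, against 0.0333%, 0.0308% and 0.0349% in control libraries 1, 2 and 3. Every CIH share lay above every control share. The exact 95% intervals of the lowest CIH and highest control shares overlap (0.0363% to 0.0461% in CIH library 2 and 0.0286% to 0.0421% in control library 3), so counting error does not separate these libraries. The means were 0.0454% ± 0.00395 in CIH and 0.0330% ± 0.00206 in control (SD, n = 3 each), equal to 1 3p read for every 2054 to 2440 5p reads in CIH and 2866 to 3248 in control. On the log2 scale the 3p to 5p ratio was 0.46 higher in CIH, and leaving out each library in turn gave 0.41 to 0.53.

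**Figure D3:**
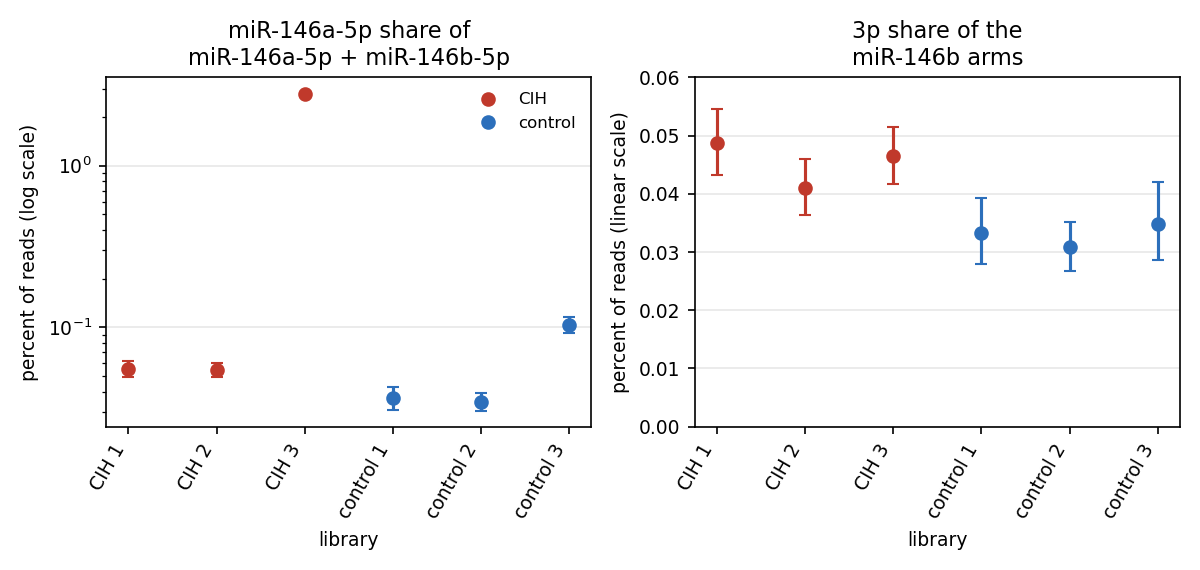
Left, share of miR-146a-5p in the reads of both 5p strands, in percent on a log axis. Right, share of the 3p strand in the reads of the miR-146b arms, in percent on a linear axis from 0. Points are libraries, CIH in red and control in blue, with exact 95% intervals. CIH library 3 lies at 2.78% on the left, and on the right all CIH libraries (0.0410% to 0.0487%) lie above all control libraries (0.0308% to 0.0349%).

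Strand choice at the miR-146b precursor was among the most one-sided of the precursors that could be ranked. Of 88 precursors with both arms in all tables and at least 10 reads of the minor arm in each library, miR-146b had rank 2 for the lowest minor-arm share, after miR-21a. These conditions leave out precursors with rarer minor arms, among them miR-146a, so the rank holds for these 88 only. The median minor-arm share of the 88 was 10.03%. A minor-arm share with CIH wholly above control was found for 4 of the 88 (4.55%), the others being miR-27b, miR-34c and miR-450b, and one in either direction for 5 (5.68%). The log2 difference of the minor to major arm ratio was 0.46 for miR-146b, rank 19 from the top, with a median of 0.15 and 52 values above 0 among the 88.

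For miR-146a the 3p strand had 2 reads in CIH library 3, against 22126 reads of its 5p strand, a share of 0.00904% (exact 95% interval 0.00110% to 0.0327%). In control library 3 it had 0 reads against 320, which allows a share of up to 0.938%. The depth of miR-146a-5p in control library 3 is therefore too low to compare the arms between the groups.

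No miRNA had a profile close to that of miR-146a-5p. Likeness was taken as the root mean square distance between log2 levels centred on their mean over the 6 libraries, among 254 other miRNAs with a mean of at least 10 CPM. The nearest was miR-125b-1-3p at 1.29 log2 units, followed by miR-199b-5p (1.32), miR-351-5p (1.35), miR-3535 (1.36) and miR-34a-5p (1.37), with a median of 2.22 over all 254. These 5 were highest in CIH library 3, as miR-146a-5p was, but by less. miR-125b-1-3p held 58.1, 33.5 and 210.2 CPM in CIH libraries 1, 2 and 3 and 34.2, 30.4 and 20.0 CPM in control libraries 1, 2 and 3. miR-34a-5p, a known target of p53, held 52.6, 39.1 and 210.6 CPM in CIH, against 38.5, 46.4 and 36.4 CPM in control.

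miR-146b-5p had closer neighbours. miR-421-3p lay at 0.0901 log2 units, miR-467e-5p at 0.116, miR-30d-3p at 0.169, miR-423-3p at 0.189 and miR-151-5p at 0.211, with a median of 0.657 over the 254. All 5 shared the low value in control library 3. miR-421-3p held 18.4, 16.2 and 17.1 CPM in CIH, against 18.0, 16.6 and 8.23 CPM in control, and miR-423-3p held 523, 435 and 372 CPM in CIH, against 431, 342 and 265 CPM in control. CPM of all these rows share the library totals, so a large change of one abundant miRNA moves them together.

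**Figure D4:**
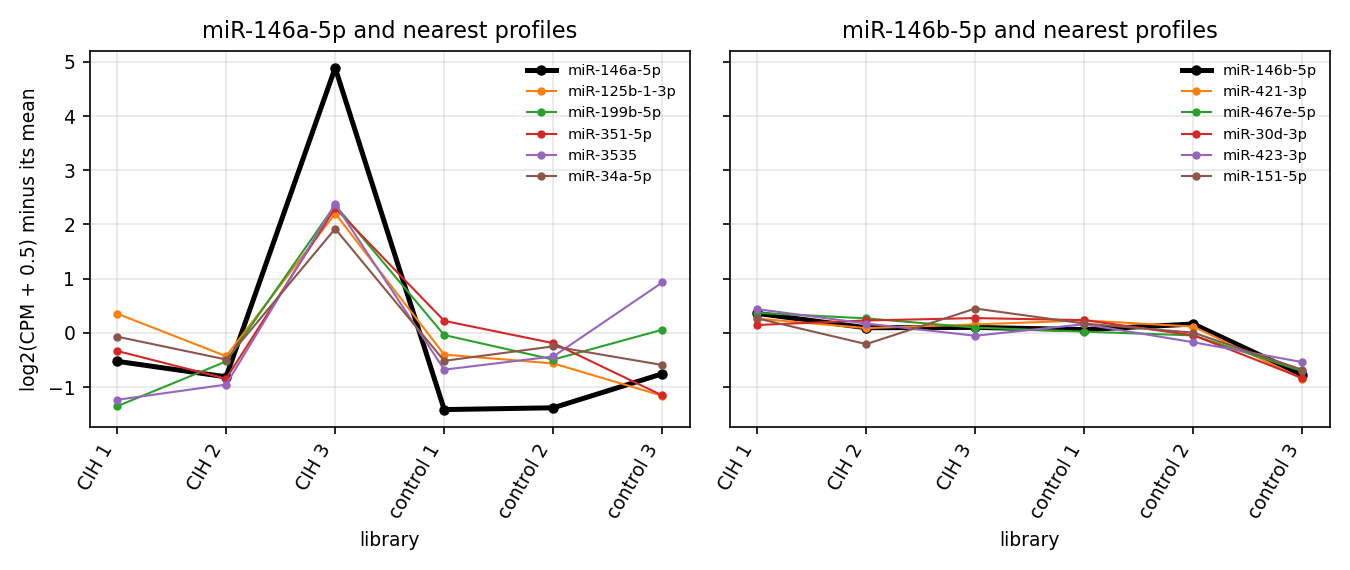
Log2(CPM + 0.5) minus its mean over the 6 libraries for miR-146a-5p (left, black) and miR-146b-5p (right, black) and the 5 miRNAs nearest to each (colours), with CIH libraries left of control libraries. The peak of miR-146a-5p in CIH library 3 exceeds that of its neighbours, whose distances start at 1.29, and miR-146b-5p and its neighbours share a low value in control library 3.

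Other miRNAs reported to be induced by NF-kB, Toll-like receptor ligands or inflammatory cytokines, or to act on NF-kB, formed a list of 19 names, of which 18 were in all tables and 16 passed the filter on low counts. The list was drawn up with earlier results of these data known. Over the 6 libraries 0 of the 16 rose and 0 fell (edgeR), as for all 456 miRNAs. Values above 0 were found for 11 of the 16 and 244 of the 456, with a median log2 difference of 0.28 for the list and 0.04 for all.

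miR-155-5p, an NF-kB and AP-1 target of activated immune cells, held 308, 207 and 525 CPM in CIH libraries 1, 2 and 3, against 154, 176 and 90.7 CPM in control libraries 1, 2 and 3. Each CIH library lay above each control library. The same was true of its 3p strand (17.7, 6.67 and 4.53 CPM in CIH, against 4.29, 3.70 and 0.847 CPM in control). It was also true of miR-187-3p (7.22, 3.09 and 5.59 CPM in CIH, against 2.23, 1.44 and 1.33 CPM in control). The margins are small, at 4.53 against 4.29 CPM for miR-155-3p and 3.09 against 2.23 CPM for miR-187-3p. Whether counting error separates these levels was not tested. Toll-like receptor signalling induces miR-187-3p in human monocytes. Of all 456 tested miRNAs, 34 (7.46%) had CIH ranges wholly above control. Over the 6 libraries the log2 differences were 1.16 (SE 0.45) for miR-155-5p, 1.67 (SE 0.69) for miR-155-3p and 1.48 (SE 0.51) for miR-187-3p, each with an edgeR adjusted p of 0.834. By file total, miR-155-5p in CIH library 3 was 5.79 times its level in control library 3, where miR-146a-5p was 50.7 times. Over the list members with reads in both of these libraries, this fold ran from 0.825 for miR-147-3p to 7.19 for miR-125a-5p. The stromal marker miR-214-3p, outside the list, was at 21.9 times.

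On the lower side the smallest p-values belonged to miR-9-5p, an NF-kB-responsive miRNA of human monocytes, at -0.53 (SE 0.48, edgeR adjusted p = 0.934), miR-301a-3p, reported to repress an NF-kB inhibitor, at -0.47 (SE 0.52, edgeR adjusted p = 0.934), and miR-212-5p at -0.22 (SE 0.48, edgeR adjusted p = 0.988). miR-9-5p held 91.9, 73.4 and 50.8 CPM in CIH, against 170, 82.3 and 50.1 CPM in control, ranges that overlap.

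Within the libraries numbered 1 and 2, 3 of the 16 rose and 0 fell, where 4.14% of all 459 tested miRNAs rose and 5.23% fell. The 3 were miR-155-3p (log2 difference 1.69, SE 0.41, edgeR adjusted p = 0.00685), miR-187-3p (1.60, SE 0.48, edgeR adjusted p = 0.0292) and miR-155-5p (0.76, SE 0.23, edgeR adjusted p = 0.0340). The other 13 did not pass. miR-155-3p and miR-155-5p are strands of the same precursor, so these calls are not independent. Because the list was drawn up with results known, its count beside that of all miRNAs is a description. Between the sets of libraries 4 of the 16 differed, where 25.0% of all tested miRNAs did: let-7e-5p was higher in the libraries numbered 3, with a log2 difference of 1.43 (SE 0.37, edgeR adjusted p = 0.0333), and miR-21a-5p, miR-21a-3p and miR-132-5p were lower, the last at -2.17 (SE 0.44, edgeR adjusted p = 0.0178) and miR-21a-3p at -2.31 (SE 0.52, edgeR adjusted p = 0.0239). With 1 library left out this count of 4 ran from 0 (without CIH library 2, control library 1 or control library 2) to 8 (without control library 3), with 1 without CIH library 1 and 6 without CIH library 3. In CIH against control, none of these 4 passed. Within the libraries numbered 1 and 2, miR-21a-5p had a log2 difference of 0.50 (SE 0.22, edgeR adjusted p = 0.169) and miR-132-5p, from a CREB-responsive cluster, one of 0.68 (SE 0.34, edgeR adjusted p = 0.243). The count of 3 list members that rose fell to 1 with DESeq2 or limma-voom and to 0 with total counts as the scaling, with a mean of at least 10 CPM as the filter, or without CIH library 1, control library 1 or control library 2. Without CIH library 2 it was 4.

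**Figure D5:**
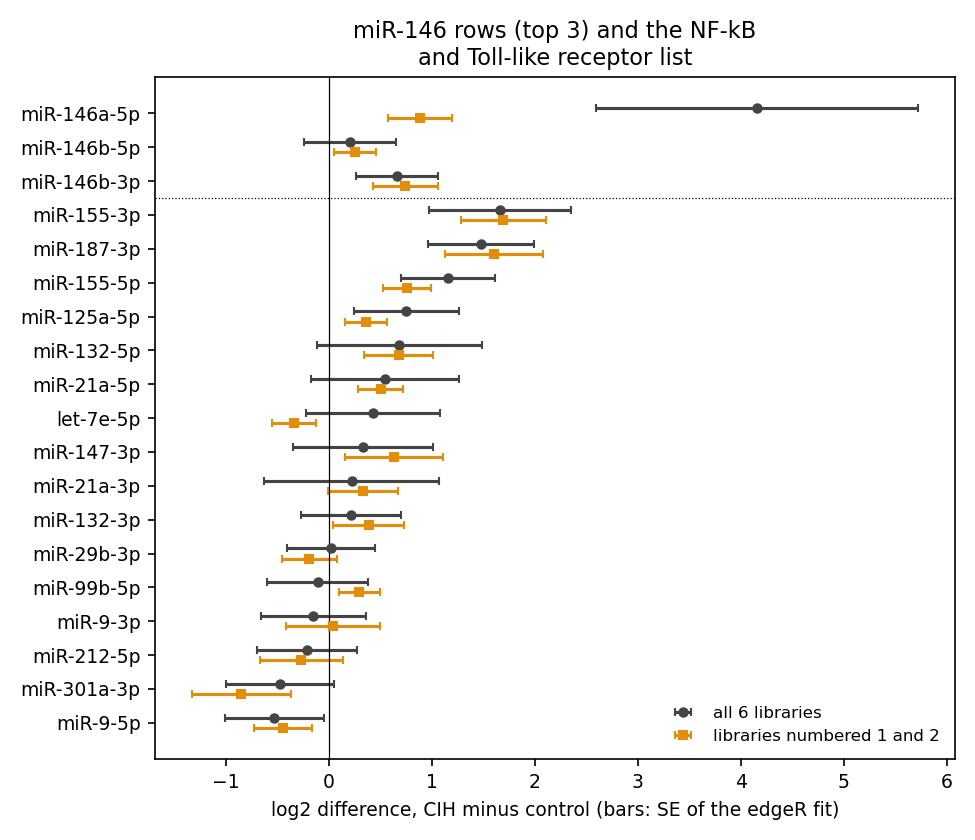
Log2 differences, CIH minus control, for the 3 tested miR-146 arms (top) and the 16 tested miRNAs of the NF-kB and Toll-like receptor list, from edgeR fits over all 6 libraries (circles) and the libraries numbered 1 and 2 (squares), with SE bars. miR-146a-5p lies at 4.16 over the 6 libraries and at 0.88 in those numbered 1 and 2, and miR-146b-5p at 0.20 and 0.26.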

How the data were processed

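The deposited values are whole-number read counts per mature miRNA, taken as raw counts from the values although 3 headers name them FPKM. Per the submitters' processing notes, GRCm38, DESeq 1.8.3 and featureCounts 1.5.0-p3 were used, with no role stated. On trimming, aligner, miRBase release and reads that match several names, nothing is given in the sources used here.

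The 929 known names in all 6 tables hold at least 99.97% of each library. They were tested with edgeR 4.0.16 (robust quasi-likelihood F test, TMM, filterByExpr, group as the only term, Benjamini-Hochberg at 0.05) in R 4.3.3. DESeq2 1.42.0 and limma 3.58.1 (voom) served as alternatives. The set of libraries numbered 3 was a second term in its own fit. The TMM factors were 1.15, 0.937 and 1.11 in CIH libraries 1, 2 and 3 and 1.20, 1.10 and 0.636 in the control libraries. Fits were tested on simulated counts. Tables were read with Python 3.11.15 and pandas 2.3.3.

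Members, lists and tests were chosen with earlier results of these data known. All miR-146 rows were named, with the 5 nearest profiles of each 5p strand, and list members that were called or had the 3 smallest p in each direction. Markers of cell types were given as sums, and some members of these lists were named after their values were seen. miR-148a-3p, the miRNAs listed for their ratio in CIH library 3, and the precursors listed for their arm shares were named after their values were seen.

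Across miRNAs, same-numbered libraries deviated together from their group means (r of 0.31, 0.34 and 0.41 for numbers 1, 2 and 3), so library numbers were treated as pairs in a blocked alternative. CIH library 2 correlated more with control library 1 (0.40) than with its own number, and CIH library 1 with control library 2 at 0.21. The data thus set number 3 apart but do not match numbers 1 and 2 one to one, and the labels give only the number. Libraries of a group differed by more than counting noise (chi-square of at least 156 per degree of freedom). Separate animals or cultures are not mentioned in the labels: the p-values reflect only how these libraries vary, and that variation could be technical.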

Additional observations from a re-analysis of the deposited data

How the results depend on the processing

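The result carried by 1 library was miR-146a-5p. Its pooled log2 difference of 4.16 was 0.88 in the libraries numbered 1 and 2, and 0.18 to 4.88 with each library left out in turn (0.18 without CIH library 3), and 2.25 (SE 1.47) with limma-voom. Within the libraries numbered 1 and 2, leaving out each library gave 0.80 to 1.03 for miR-146a-5p and 0.14 to 0.44 for miR-146b-5p. The pooled values of miR-146b-5p (0.09 to 0.32) and miR-146b-3p (0.55 to 0.80) moved by less than their spread in all 14 alternatives each.

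Pooled calls stayed at 0 in each alternative on the 6 libraries or 5 of them, and were 43 in the libraries numbered 1 and 2, with 3 of the list. Those 43 became 16 with a filter at a mean of 10 CPM, and 9 to 97 with 1 library left out. The 3 list calls became 0 with total counts only, 0 with the filter at 10 CPM, 1 with DESeq2, 1 with limma-voom, and 0 to 4 with 1 library left out. The 114 calls between the sets of libraries became 60 with total counts only and 2 to 253 with 1 library left out. The difference of miR-146b between these sets turned sign with RLE scaling (0.061 for the 5p and 0.15 for the 3p strand) and DESeq2 (0.061 and 0.15), and ranged from -0.20 to 0.039 and from -0.15 to 0.17 with 1 library left out. The cause was not tested.

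With the library number as a replicate block the pooled values were 2.05, 0.20 and 0.66 for miR-146a-5p, miR-146b-5p and miR-146b-3p, with 0 pooled calls. In the libraries numbered 1 and 2 it called 48, of which 42 are among the 43 called without it, and the same 3 of the list.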
